A study of Homo sapiens with 9 samples.

Results

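The mitochondrial genome encodes 7 subunits of respiratory complex I, and their mRNAs, MT-ND1, MT-ND2, MT-ND3, MT-ND4L, MT-ND4, MT-ND5 and MT-ND6, were examined in eCLIP libraries of malate dehydrogenase 2 (MDH2). The members were taken by gene symbol together with all windows of each gene. They are 7 of the 13 mitochondrial mRNAs and 7 of the 35309 identifiers in the table of cross-link counts. Windows are 50 nt long and start every 20 nt along a gene, and 297 of the 311 windows that these genes can hold were listed in the table.

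The libraries were made from Huh7, a human hepatoma line that the labels describe as carcinoma cells derived from hepatocytes. All cells were UV cross-linked, and the lysates were sonicated and digested with RNase I before the IP, so that short RNA fragments remained attached to protein. Each group held 3 replicates, and the labels name no genotype change or drug for any group. The MDH2 IP used an antibody against endogenous MDH2 on protein A beads, the IgG IP used isotype-matched IgG, and the size-matched input (SMI) was 1% of the lysate put aside ahead of the IP. The IP was made from whole lysate and not from isolated mitochondria. PCR ran for 14 cycles in both kinds of IP library and for 9 in the SMI, so the cycle number cannot be told apart from the step from SMI to IP. The summed window counts ranged from 5899767 to 9482209 in the MDH2 IP, from 8311027 to 9788461 in the SMI and from 1631220 to 2942624 in the IgG IP. All 7 hepatocyte markers examined had counts in each SMI library, with APOB at 3120 to 3928 and ALB at 453 to 670.0 CPM (counts scaled to the sum of all window counts of a library).

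Complex I, the NADH:ubiquinone oxidoreductase, takes electrons from NADH in the mitochondrial matrix and pumps protons across the inner membrane. Its membrane arm is built around the mitochondrially encoded subunits, while the other subunits are made from nuclear genes and imported. MDH2 oxidises malate to oxaloacetate in the same matrix and yields NADH, the substrate of complex I. MT-ND1 forms part of the ubiquinone-binding site, MT-ND2, MT-ND4 and MT-ND5 are the antiporter-like proton channels, and MT-ND3, MT-ND4L and MT-ND6 are small membrane subunits near the interface of the arms. All but MT-ND6 are cut from the long transcript of the heavy strand, where MT-ND4L and MT-ND4 stay together as a single mRNA with overlapping reading frames.

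On GRCh38 chromosome M, MT-ND1 (ENSG00000198888) lies at chrM:3307-4262, MT-ND2 (ENSG00000198763) at chrM:4470-5511 and MT-ND3 (ENSG00000198840) at chrM:10059-10404. MT-ND4L (ENSG00000212907) lies at chrM:10470-10766, MT-ND4 (ENSG00000198886) at chrM:10760-12137 and MT-ND5 (ENSG00000198786) at chrM:12337-14148, all on the plus strand. MT-ND6 (ENSG00000198695) lies on the minus strand at chrM:14149-14673 and is the only mitochondrial mRNA encoded there. Mitochondrial genes have no introns, and each window lies in the single exon of its gene. The mRNA strand of MT-ND6 holds 35.6% G and 7.05% C, against 9.50% to 12.1% G and 29.5% to 36.0% C in the other members. Windows were numbered from the lower genomic coordinate on both strands, so that window 1 of MT-ND6 is its 3′ end and window 25 its 5′ end.

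Stretches to which the comparisons below return are printed from GRCh38 5′ to 3′ on the mRNA strand. The junction of MT-ND4L and MT-ND4 at chrM:10670-10849 is shown because it holds the complex I windows that fell furthest below the SMI, with the 7 bases shared by both genes in capitals. MT-ND6 at chrM:14249-14398 holds windows 6 to 11, among them the 3 with the largest change in each comparison with the IgG IP, with window 7 in capitals. The last 3 stretches show in capitals the most counted window of MT-ND3 in each group (window 10, chrM:10239-10288), of MT-ND4 in the SMI (window 25, chrM:11240-11289) and of MT-ND5 in the MDH2 IP (window 39, chrM:13097-13146).
MT-ND4L/MT-ND4 junction: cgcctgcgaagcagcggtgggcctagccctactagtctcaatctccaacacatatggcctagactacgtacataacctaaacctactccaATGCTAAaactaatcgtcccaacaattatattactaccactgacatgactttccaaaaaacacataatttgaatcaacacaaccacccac
MT-ND6 windows 6 to 11: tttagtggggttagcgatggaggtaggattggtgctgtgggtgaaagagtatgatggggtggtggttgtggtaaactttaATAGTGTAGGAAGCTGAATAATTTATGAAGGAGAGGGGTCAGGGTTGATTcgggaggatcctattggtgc
MT-ND3 window 10: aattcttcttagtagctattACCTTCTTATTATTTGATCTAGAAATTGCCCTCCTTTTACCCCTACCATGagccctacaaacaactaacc
MT-ND4 window 25: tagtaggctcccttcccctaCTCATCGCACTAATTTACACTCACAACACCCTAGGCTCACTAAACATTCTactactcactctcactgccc
MT-ND5 window 39: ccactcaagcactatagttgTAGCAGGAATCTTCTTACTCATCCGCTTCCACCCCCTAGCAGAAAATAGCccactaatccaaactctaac

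The first question was how many cross-link counts each mRNA had in each group. In the MDH2 IP, levels per kb of gene ran from 1111 ± 130.0 CPM per kb (SD, n = 3) for MT-ND4L and 996 ± 103 for MT-ND4 down to 363 ± 40.0 for MT-ND1 and 239.9 ± 24.5 for MT-ND6. MT-ND3 (578 ± 45.8), MT-ND5 (556 ± 39.3) and MT-ND2 (406 ± 49.0) lay between them. The replicates of MT-ND4L and MT-ND4 overlapped, as did those of MT-ND3 and MT-ND5 and of MT-ND2 and MT-ND1. In the SMI, MT-ND4 (1391 ± 156 CPM per kb) and MT-ND4L (1372 ± 267) were also at the top with overlapping replicates, and MT-ND6 was again the lowest at 200.4 ± 16.3. In the IgG IP, MT-ND6 stood first at 1231 ± 355 CPM per kb, with replicates that overlapped those of MT-ND4 (978 ± 50.9). MT-ND4L (869 ± 153) and MT-ND5 (561 ± 46.6) were the only neighbours in the IgG IP whose replicates did not overlap.

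**Figure D1:**
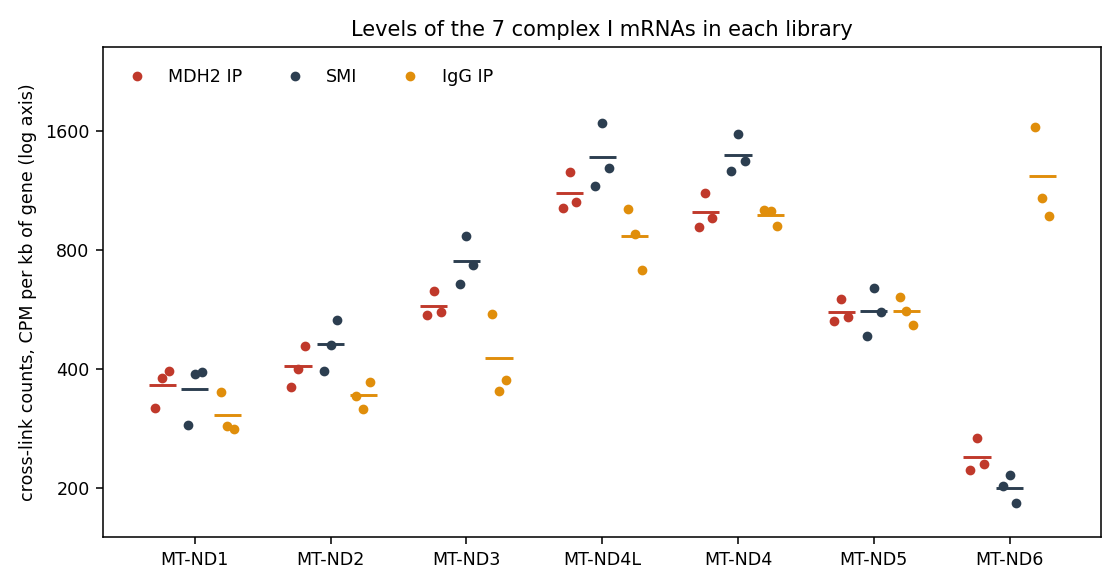
Level of each complex I mRNA in each of the 9 libraries, as CPM of all window counts per kb of gene on a log axis, with points for libraries and bars for group means. MT-ND6 is the lowest member in the MDH2 IP (222 to 268) and the SMI (183 to 216), and stands at 974 to 1636 in the IgG IP.

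Among the proton channel mRNAs, MT-ND4 had the most counts, with 1257, 1531 and 1329 CPM in MDH2 IP replicates 1, 2 and 3, 1745, 2158 and 1848 in the SMI, and 1392, 1385 and 1267 in the IgG IP. All SMI libraries were above all libraries of both IPs. MT-ND5 had 955, 1089 and 981 CPM in the MDH2 IP, 875, 1162 and 1011 in the SMI, and 1102, 1016 and 934 in the IgG IP, and all 3 groups overlapped. MT-ND2 had 375, 417 and 476 CPM in the MDH2 IP, 413, 479 and 554 in the SMI, and 356, 330.4 and 386 in the IgG IP, so that the SMI lay above the IgG IP and overlapped the MDH2 IP. MT-ND1, the quinone site subunit, had 304, 362 and 377 CPM in the MDH2 IP, 276, 371 and 376 in the SMI, and 335, 275 and 269 in the IgG IP, with overlap throughout.

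Of the small subunits, MT-ND3 had 189, 218 and 193 CPM in the MDH2 IP, 227, 299.8 and 253 in the SMI, and 190.3, 122 and 130.0 in the IgG IP. Its lowest SMI library was above the highest library of either IP. MT-ND4L had 302, 374 and 314 CPM in the MDH2 IP, 344, 497 and 382 in the SMI, and 302, 260.3 and 211 in the IgG IP. For MT-ND4L the MDH2 IP and SMI overlapped, while the SMI lay above the IgG IP. MT-ND6 had 117, 141 and 121 CPM in the MDH2 IP, 106, 113 and 96.2 in the SMI, and 859, 569 and 511 in the IgG IP. The MDH2 IP was just above the SMI in each of its libraries, and the IgG IP was far above both.

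Gene totals, scaled by TMM, were compared by the quasi-likelihood test of edgeR, with Benjamini-Hochberg adjustment over all genes tested and 0.05 as the threshold of the adjusted p. MT-ND4 and MT-ND3 were lower in the MDH2 IP than in the SMI, and no complex I mRNA was higher. MT-ND4 fell by 0.58 on the log2 scale (SE 0.14, adjusted p = 0.0138 by edgeR), a level 1.49-fold lower. MT-ND3 fell by 0.47 (SE 0.14, adjusted p = 0.0309), or 1.39-fold. For comparison, 17.9% of the 17056 genes tested were lower and 16.4% higher in this contrast, so 2 of 7 members lower is not far from what all genes gave. The others missed the threshold, with log2 fold changes of −0.40 for MT-ND4L (adjusted p = 0.0928), −0.28 for MT-ND2 (0.181), −0.10 for MT-ND5 (0.596), −0.07 for MT-ND1 (0.765) and 0.17 for MT-ND6 (0.360). No member was higher at an unadjusted p under 0.05 either (0 of 7), nor with DESeq2 (0).

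The tests above use no pairing of libraries. Replicate numbers of the MDH2 IP and the SMI were taken as pairs because same-numbered libraries deviated alike, least so for replicate 1 (correlation 0.13). The labels name no pairs, and the pairing was read from the same counts that were then tested. The p-values with the block may therefore be too small. With the number as a block, 4 members were lower instead of 2. The share of all genes called with the block is not given, so this count has no background from the whole series. The block added MT-ND2 at −0.28 (adjusted p = 3.56e-04) and MT-ND4L at −0.39 (adjusted p = 6.83e-06) to MT-ND4 and MT-ND3, while the sizes of the changes hardly moved. MT-ND4 kept its call in all other settings except without MDH2 IP replicate 1, where its adjusted p was 0.0698 and no member passed. The call of MT-ND3 depended on more libraries: without SMI replicate 2 its adjusted p was 0.0892, and it was lost too without MDH2 IP replicate 1 (0.123) or 3 (0.0738), without SMI replicate 3 (0.0529), with total counts as library size (0.0657) and with all 9 libraries in 1 fit (0.0802).

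In the comparison of the MDH2 IP with the IgG IP, MT-ND6 fell by 2.51 on the log2 scale (SE 0.22, adjusted p = 3.67e-04), 5.69-fold lower in the MDH2 IP. It ranked 31 of 15491 genes from the lowest fold change, and 7.77% of these genes were lower and 4.64% higher. The other 6 members lay between −0.16 (MT-ND5) and 0.28 (MT-ND3) with adjusted p-values of 0.364 or more. No member was higher (0 of 7 at an unadjusted p under 0.05, and 0 with DESeq2).

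The IgG IP was also set against the SMI, to see what an unrelated antibody does to these mRNAs. MT-ND6 rose by 2.76 on the log2 scale in the IgG IP (SE 0.21, adjusted p = 2.21e-05), 6.80-fold above the SMI and rank 237 of 15708 genes. MT-ND3 fell by 0.67 (SE 0.20, adjusted p = 0.0309), although leaving out any library but IgG IP replicate 1 took its adjusted p above the threshold. Of all genes tested, 16.4% were higher and 11.4% lower. MT-ND4L (−0.51, adjusted p = 0.0643), MT-ND4 (−0.36, 0.0933), MT-ND2 (−0.28, 0.227), MT-ND1 (−0.07, 0.788) and MT-ND5 (0.15, 0.503) missed the threshold. Each pair of these 3 comparisons shares a group of libraries, so they are not independent results. TMM set the gene fold changes apart from those on the plain CPM scale by −0.09 for the MDH2 IP over the SMI, −0.15 for the MDH2 IP over the IgG IP and 0.15 for the IgG IP over the SMI. The strand setting with which the authors counted sites is not given in the sources used here, and without strand, counts of MT-ND6 could not be told apart from those of heavy-strand RNA opposite it.

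**Figure D2:**
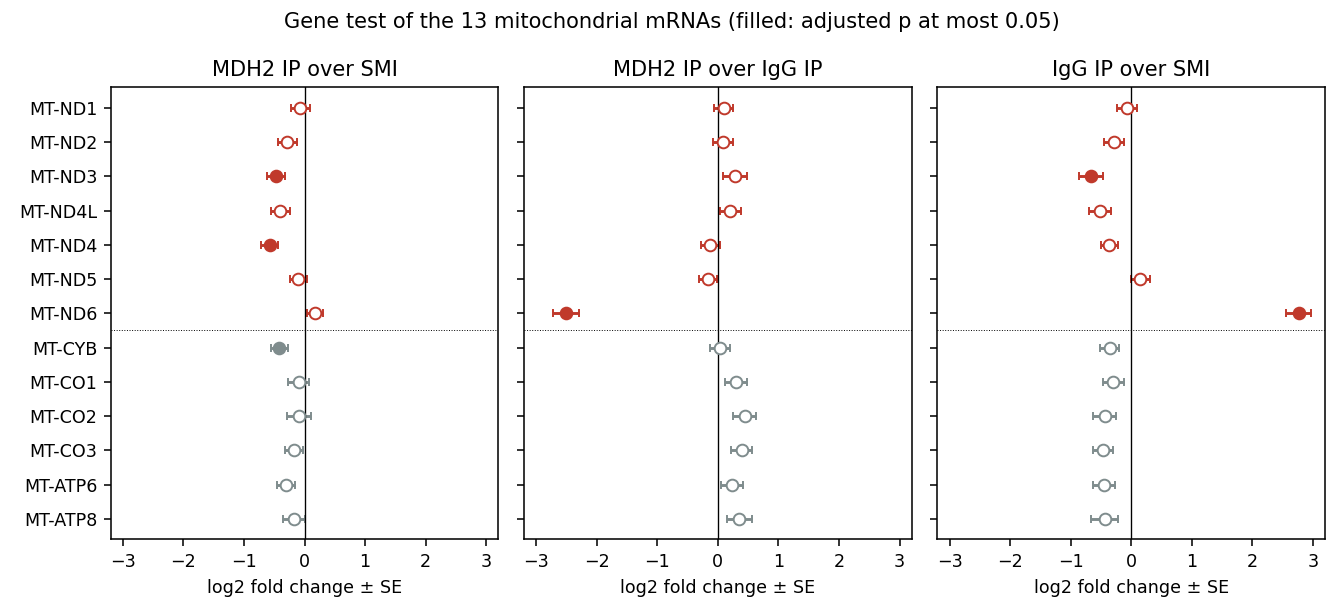
Gene test of the 13 mitochondrial mRNAs in the 3 comparisons, with the complex I mRNAs in red above the dotted line and the other 6 in grey below it. Points give the log2 fold change and bars its SE. MT-ND6 lies at −2.51 in the middle panel (MDH2 IP over IgG IP) and at 2.76 for IgG IP over SMI, and the other points lie between −0.67 and 0.44.

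The other 6 mitochondrial mRNAs, for cytochrome b, subunits of cytochrome oxidase and subunits of ATP synthase, come from the heavy-strand transcript and serve as the nearest comparison. Among them MT-CYB, the cytochrome b of complex III, was lower in the MDH2 IP than in the SMI (log2 fold change −0.42, adjusted p = 0.0455), and none passed in the other 2 contrasts. The median log2 fold change over the SMI was −0.28 for the complex I mRNAs, −0.18 for the other 6 and −0.01 for all genes. In each library the summed complex I counts were divided by the summed counts of the other 6. This log2 ratio was 0.0027, −0.16 and −0.098 in the MDH2 IP, 0.11, 0.0042 and 0.078 in the SMI, and 0.39, 0.39 and 0.55 in the IgG IP. The IgG IP lay above the others by a wide margin, whereas the highest MDH2 IP library was below the lowest SMI library by a very small one. Without MT-ND6 the mean difference between IgG IP and SMI went from 0.38 to 0.17. Since the members were chosen with earlier results of these data known, the ratio is given without a p-value.

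Within the complex I counts themselves, MT-ND6 took 3.18% to 3.40% in the MDH2 IP, 2.13% to 2.67% in the SMI and 13.8% to 18.9% in the IgG IP. These ranges did not overlap. MT-ND4 took 35.1% to 37.1% in the MDH2 IP, 40.9% to 43.8% in the SMI and 30.7% to 35.0% in the IgG IP, and MT-ND5 took 25.9% to 27.3%, 22.0% to 22.9% and 24.3% to 25.7%. The shares of MT-ND4 were thus highest in the SMI and those of MT-ND5 highest in the MDH2 IP, without overlap in either case. Shares of a common sum are tied, and the large share of MT-ND6 in the IgG IP lowers those of the other members there. The order of MT-ND5 between the IPs can therefore not be read from its share, and its CPM overlapped between all groups. All 7 together made up 0.350% to 0.413% of all counts in the MDH2 IP, 0.399% to 0.508% in the SMI and 0.371% to 0.454% in the IgG IP, and these ranges overlapped. The direction from SMI to IgG IP turned with the windows summed: the difference of the means was −0.046 percentage points over all windows and 1.05 over windows that held 10 or more counts in 3 or more libraries. The total that divides the share changed with this choice. Those windows held 1622431 to 2165388 counts in the SMI, where all windows held 8311027 to 9788461. In the IgG IP they held 176420 to 449421, where all windows held 1631220 to 2942624.

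Counts were not spread evenly along the mRNAs, and the peaks stood at much the same windows in all groups. Window 27 of MT-ND1 (chrM:3827-3876), window 32 of MT-ND2 (chrM:5090-5139), window 10 of MT-ND3 and window 7 of MT-ND4L (chrM:10590-10639) had the most counts of their gene in the MDH2 IP, the SMI and the IgG IP alike. Window 10 of MT-ND3, printed above, reached 47.2 ± 8.43 CPM in the SMI, 28.2 ± 2.80 in the MDH2 IP and 25.4 ± 8.76 in the IgG IP. In MT-ND4 and MT-ND5 the highest window differed between groups. That of MT-ND4 was window 39 in the MDH2 IP (39.6 ± 4.73 CPM), window 25 in the SMI (58.4 ± 4.38) and window 19 in the IgG IP (40.6 ± 4.86). That of MT-ND5 was window 39 in the MDH2 IP (24.9 ± 3.95 CPM), window 89 in the SMI (23.6 ± 3.71) and window 40 in the IgG IP (24.3 ± 5.98). In MT-ND6, windows 17 and 18 (chrM:14469-14538) were highest, with 58.1 ± 15.4 CPM in window 17 of the IgG IP, 12.6 ± 1.48 in the SMI and 10.4 ± 2.03 in the MDH2 IP.

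**Figure D3:**
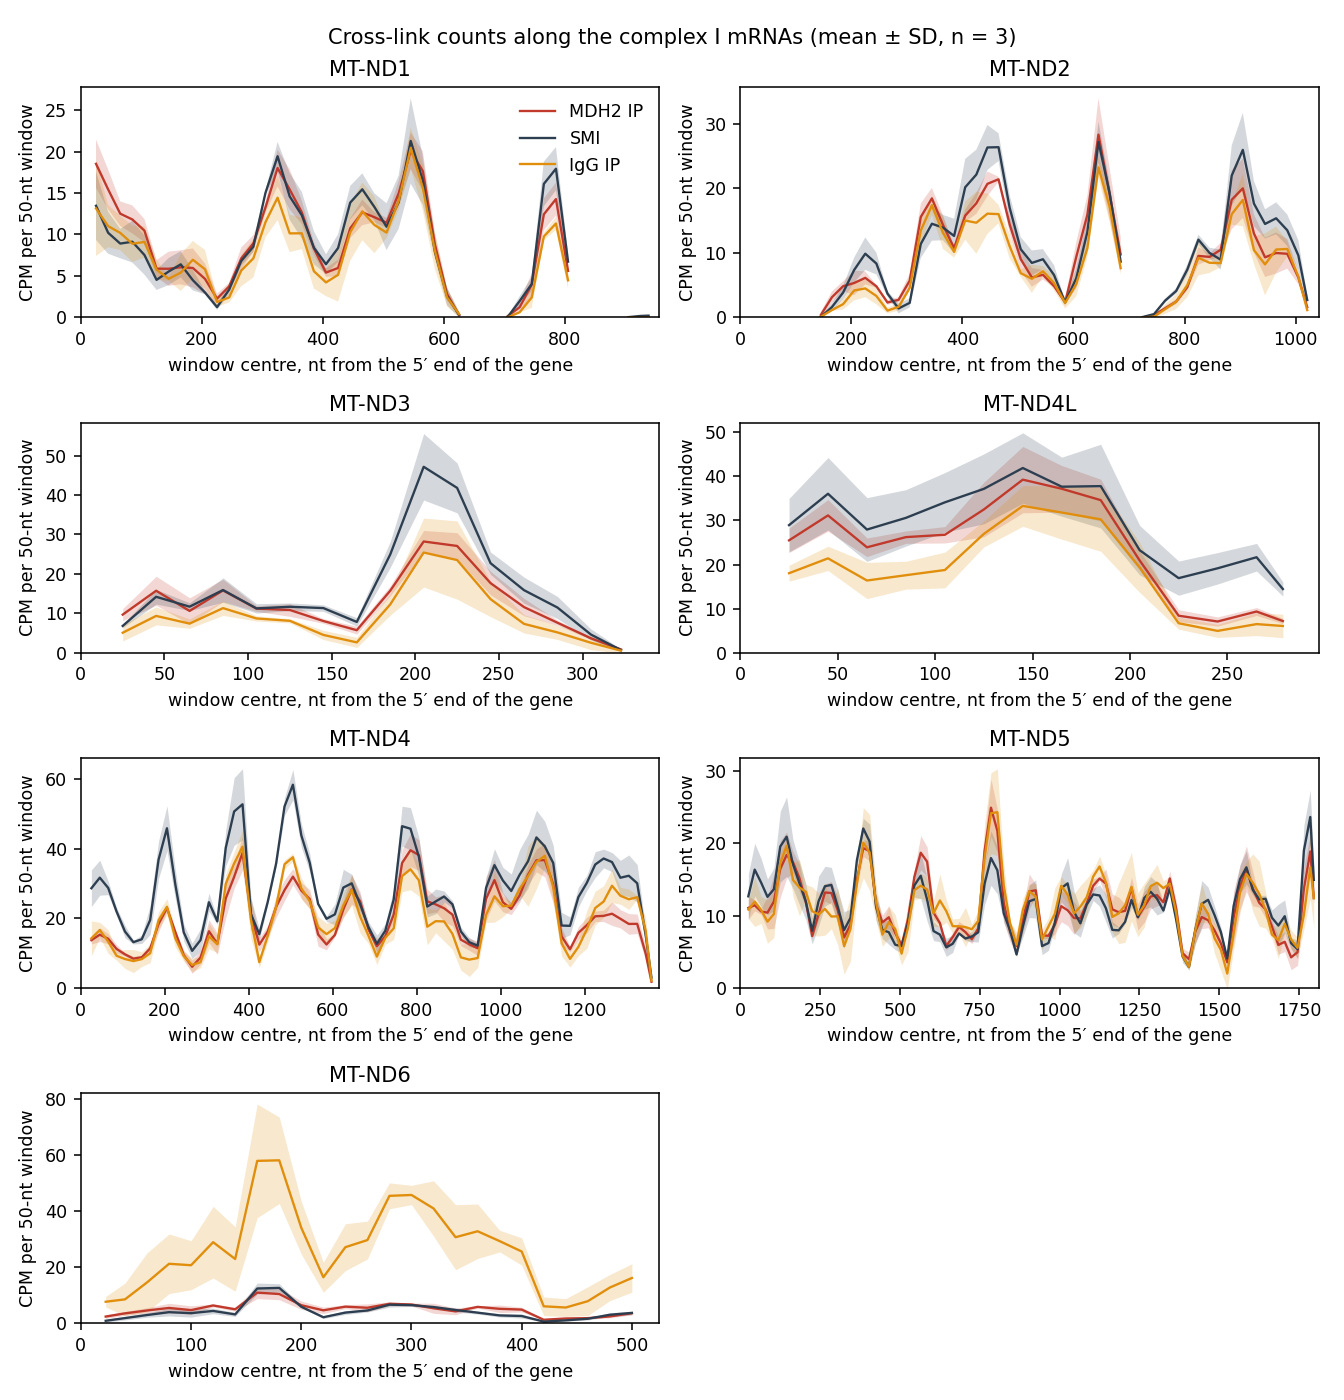
Cross-link counts along each complex I mRNA, with the window centre in nt from the 5′ end of the gene on the x axis and CPM per 50-nt window on the y axis. Lines are group means and bands 1 SD (n = 3), and gaps are windows that were not listed. In MT-ND6 the IgG IP reaches 58.1 at window 17, while the MDH2 IP and SMI stay at or below 12.6.

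The window test asked where along an mRNA the groups differed. Windows entered it when 3 or more of the 6 libraries held 10 or more counts. One-sided p-values were multiplied by the number of overlapping windows and adjusted over all windows, and a call needed both an adjusted p no higher than 0.05 and a log2 fold change no smaller than 1 in size. In MDH2 IP over SMI, 57 of 287 complex I windows were lower (19.9%) and 0 were higher, against 9.92% lower and 4.07% higher of all 51105 windows. At an unadjusted one-sided p under 0.05, 203 of the 287 were lower and 3 higher. The other 6 mitochondrial mRNAs had 153 of 222 windows lower and 1 higher at that level. The share of all windows at that level is not given, so these counts have no background from the whole series. MT-ND4 gave 36 of its 68 windows, MT-ND2 10 of 41, MT-ND3 4 of 15, MT-ND4L 4 of 14 and MT-ND5 3 of 90, while MT-ND1 (0 of 35) and MT-ND6 (0 of 24) gave none. Before adjustment, 19 windows of MT-ND1 and 6 of MT-ND6 were lower. The other 6 mRNAs had 26 of 222 windows lower, of which 18 were in MT-CYB.

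The number of calls depended on the scale. TMM on windows set log2 fold changes of MDH2 IP over SMI 0.50 lower than the plain CPM scale, on which the median of all windows moved from 0.05 to 0.53. With total counts as library size, 10 complex I windows were called, 7 lower (windows 12 to 14 of MT-ND4L and windows 1, 2, 3 and 9 of MT-ND4) and 3 higher (window 15 of MT-ND2 and windows 15 and 25 of MT-ND6), while 5.03% of all windows were lower and 19.1% higher. The median of the complex I windows lay below that of all windows on both scales, at −0.64 against 0.05 with TMM and −0.15 against 0.53 with total counts. Without MDH2 IP replicate 1, 35 windows were lower with TMM.

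The lowest complex I windows lay in an unbroken stretch of called windows across the junction printed above, which ran from −1.92 to −1.09. Outside it, window 38 of MT-ND2 and windows 22 to 26 of MT-ND4 reached −1.39, lower than part of the stretch. Windows 11 to 14 of MT-ND4L and 1 to 18 of MT-ND4 were all lower in the MDH2 IP than in the SMI, and these 22 windows span 480 nt at chrM:10670-11149. This stretch was delimited after the values were seen. Its windows summed to 282, 325 and 272 CPM in the MDH2 IP, 467, 596 and 538 in the SMI, and 314, 276 and 267 in the IgG IP, so that the SMI was above both IPs in each library. The median log2 fold change over its windows was −1.32 in MDH2 IP over SMI and −0.34 in IgG IP over SMI with TMM, which moved windows by −0.50 in the former and by 0.61 in the latter. With total counts as library size it was −0.84 and −0.93, with 7 windows lower in each, so the order of the IPs depended on the scale. In MDH2 IP over IgG IP the median was −0.74 with TMM and 0.07 with total counts. In windows 1 to 10 of MT-ND4L, just upstream, the medians over the SMI were −0.68 and 0.03 with TMM and −0.19 and −0.57 with total counts, and the sums there overlapped between the MDH2 IP and the SMI (270.0, 339 and 285 CPM in the MDH2 IP and 284, 414 and 308 in the SMI).

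Window 12 of MT-ND4L had the lowest fold change of all complex I windows in this contrast, with 66, 55 and 36 counts in the MDH2 IP, 131, 214 and 184 in the SMI, and 19, 6 and 8 in the IgG IP. It was lower over the SMI both in the MDH2 IP (log2 fold change −1.92, SE 0.24, adjusted p = 7.56e-06) and in the IgG IP (−1.33, SE 0.35, adjusted p = 0.0115). Window 13 followed at −1.69 in the MDH2 IP and −1.12 in the IgG IP (adjusted p = 2.11e-05 and 0.0341). With total counts window 12 lay at −1.43 in the MDH2 IP and −1.90 in the IgG IP. Window 1 of MT-ND4, which begins with the start codon, had 129, 100 and 75 counts in the MDH2 IP and 188, 303 and 303 in the SMI (−1.55, SE 0.23, adjusted p = 3.47e-05). Its level was 13.7 ± 1.08 CPM in the MDH2 IP, 14.3 ± 5.01 in the IgG IP and 28.7 ± 5.28 in the SMI. The fold change of IgG IP over SMI was −0.40 with TMM and −0.98 with total counts and was called with neither, while that of MDH2 IP over SMI with total counts was −1.06.

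Further along MT-ND4, windows 22 to 26, 28 and 29, and 58 to 68 at the 3′ end were lower in the MDH2 IP than in the SMI. Window 25, the SMI peak, had 289, 233 and 182 counts in the MDH2 IP and 474, 592 and 537 in the SMI (−1.36, SE 0.20, adjusted p = 7.35e-05), and it was lower than in the IgG IP as well (−1.08, adjusted p = 0.0130). In MT-ND2 the lower windows were 11 to 13, 38 to 40, 47, 48, 50 and 51, with the lowest at window 38 (−1.39, adjusted p = 0.0129). In MT-ND3 they were windows 9 to 11 over the peak, with window 10 at −1.23 (SE 0.21, adjusted p = 4.91e-04), and window 14. In MT-ND5 they were windows 84 to 86 near the 3′ end, the lowest at −1.12 (window 85, adjusted p = 0.00944). Window 38 of MT-ND2 held 10, 10 and 10 counts in the MDH2 IP, and all of its stretches of 30 nt also occur in a nuclear chromosome. Its call was lost without MDH2 IP replicate 1 (adjusted p = 0.193 by edgeR) or 2 (0.0513) or without SMI replicate 1 (0.0747). That of window 85 was lost without MDH2 IP replicate 1 (0.0955) or SMI replicate 2 (0.0544). The windows furthest above the SMI on the same scale were window 25 at the 5′ end of MT-ND6 (0.94, adjusted p = 0.364) and window 15 of MT-ND2 (0.82, adjusted p = 0.337), neither of which passed with TMM.

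Against the IgG IP, MT-ND6 differed along its whole length. All 24 of its tested windows were lower in the MDH2 IP than in the IgG IP, and all 23 tested were higher in the IgG IP than in the SMI. Window 7, printed in capitals above, had 40, 45 and 27 counts in the MDH2 IP, 23, 32 and 22 in the SMI, and 99, 48 and 43 in the IgG IP, although the IgG IP libraries held the fewest counts in all. Its log2 fold change of IgG IP over SMI was 3.98 (SE 0.32, adjusted p = 6.39e-20), followed by window 6 at 3.90 and window 8 at 3.69, and the smallest of the gene was 2.67 in window 2. In MDH2 IP over IgG IP the extremes were windows 10 (−3.74, SE 0.32, adjusted p = 4.69e-11), 9 (−3.63) and 11 (−3.61). With total counts as library size, 23 of the windows remained called in each of these contrasts.

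Over the members as a whole, 39 of 286 windows were lower in the MDH2 IP than in the IgG IP (24 in MT-ND6, 11 in MT-ND4 and 4 in MT-ND5), against 4.77% of all 30424 windows. None was higher (0 of 286, also 0 at an unadjusted one-sided p under 0.05), where 0.148% of all windows were. TMM had moved windows by −0.85 in this comparison, and with total counts the 23 windows of MT-ND6 were the only ones left. Of all windows, 1.85% were lower and 6.71% higher with total counts. In IgG IP over SMI, 32 of 283 windows were higher, 23 of them in MT-ND6, 6 in MT-ND5, 2 in MT-ND1 and 1 in MT-ND2, and 2 were lower (windows 12 and 13 of MT-ND4L). Of all 26666 windows in that test, 6.17% were higher and 6.34% lower. With total counts, log2 fold changes lay lower by the 0.61 that TMM had added. On that scale 23 windows of the members were higher, all in MT-ND6, and 11 were lower. Of all windows, 4.02% were then higher and 16.6% lower. The other 6 mRNAs had 0 of 219 windows higher or lower here with edgeR, and 13 higher and 4 lower at an unadjusted one-sided p under 0.05.

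**Figure D4:**
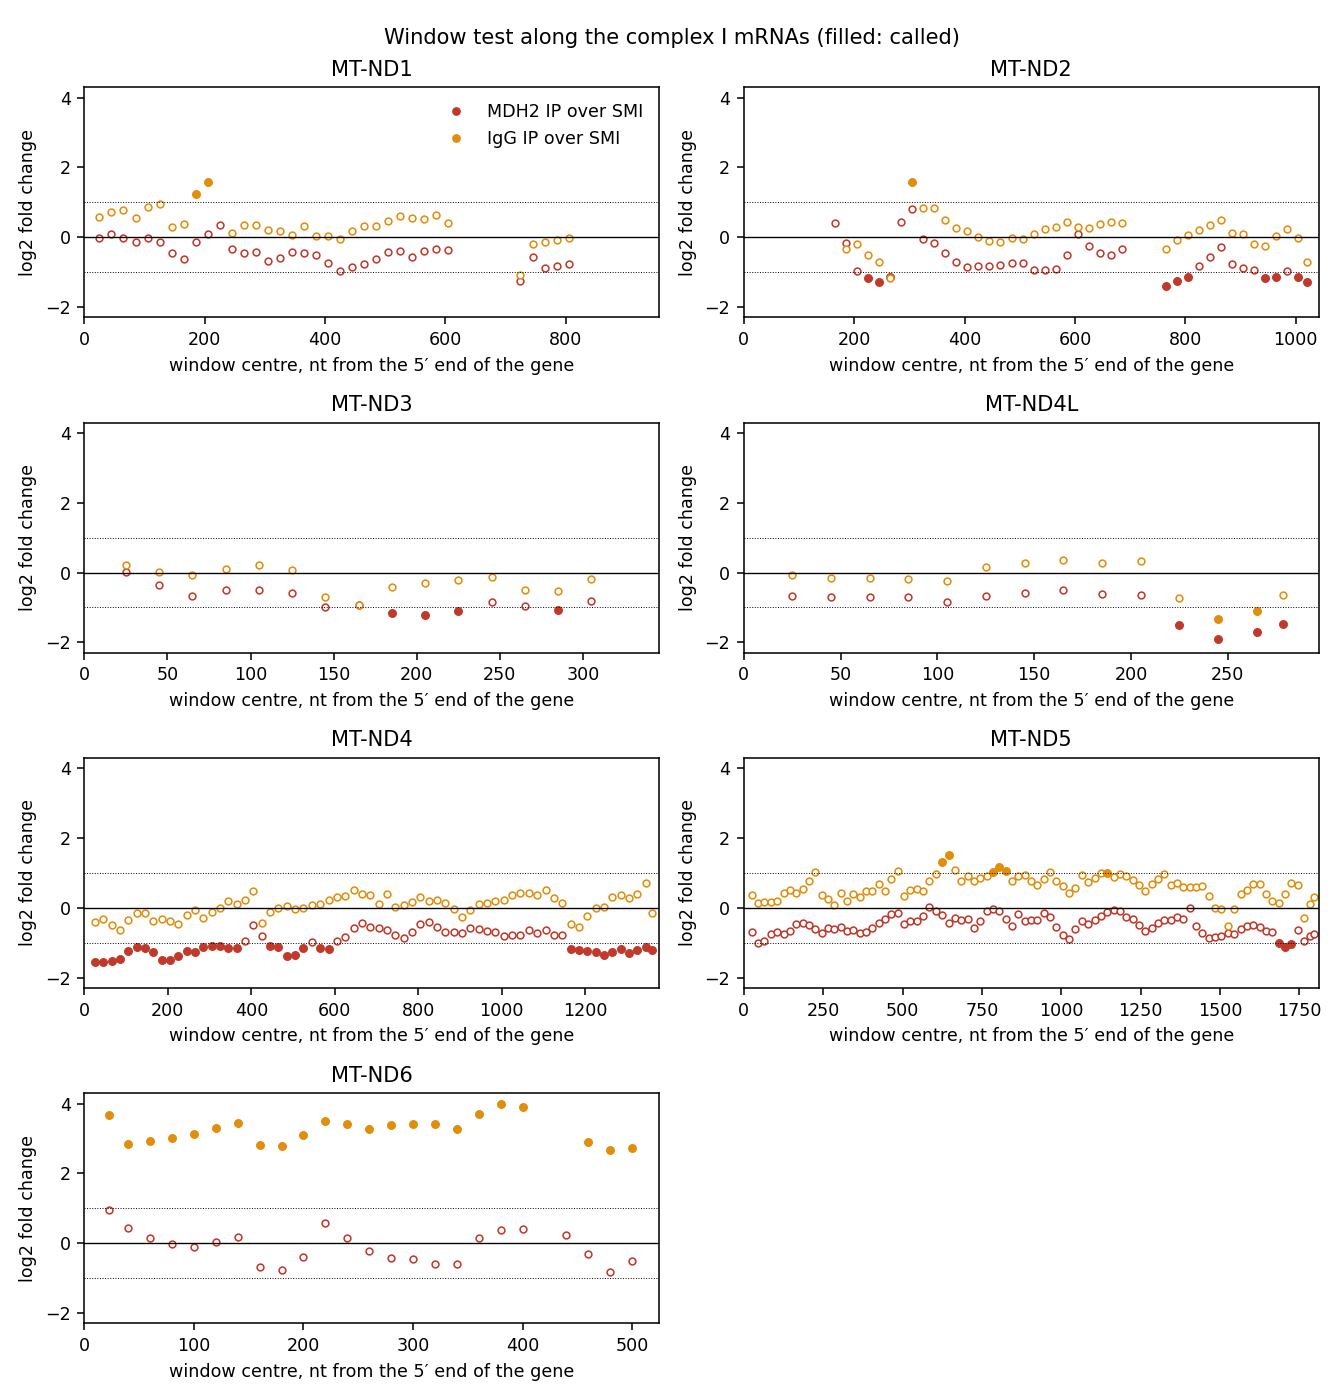
Log2 fold change of each tested window of the complex I mRNAs over the SMI, against the window centre in nt from the 5′ end, for the MDH2 IP (red) and the IgG IP (orange). Filled points were called, and dotted lines mark a log2 fold change of 1 in either direction. The red points of MT-ND4 are called lower from its 5′ end to window 18 and at windows 58 to 68, and the orange points of MT-ND6 lie between 2.67 and 3.98.

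The place of the counts within each gene was summarised as the count-weighted mean position, from 0 at the 5′ end to 1 at the 3′ end. In MT-ND1 it was 0.379 ± 0.0069 in the MDH2 IP and 0.415 ± 0.0047 in the SMI (SD, n = 3), that is, counts lay further 5′ in the MDH2 IP, without overlap. MT-ND2 (0.571 against 0.592), MT-ND3 (0.473 against 0.517) and MT-ND4L (0.409 against 0.446) went the same way without overlap. MT-ND4 went the other way (0.527 against 0.503), and MT-ND5 and MT-ND6 overlapped. With 3 libraries against 3 the exact two-sided permutation test cannot go below p = 0.1, which each of these 5 genes reached (adjusted p = 0.191 over 21 tests). The IgG IP differed from the SMI in the same directions without overlap in MT-ND1 (0.386), MT-ND3 (0.490) and MT-ND4 (0.533). In MT-ND2, MT-ND4L, MT-ND5 and MT-ND6 it overlapped the SMI. The MDH2 IP and the IgG IP overlapped in MT-ND1, MT-ND2, MT-ND3 and MT-ND5. In MT-ND4L, MT-ND4 and MT-ND6 the MDH2 IP lay below the IgG IP without overlap.

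The mitochondrial genome has copies inserted in the nuclear chromosomes, and reads with up to 10 alignments were kept. Of the 304 members' windows of full length, 143 shared no stretch of 30 nt with a nuclear chromosome, 115 shared some of their 30-nt stretches and 46 shared all of them. The median SMI level was 12.6, 13.9 and 1.74 CPM per window in these classes (windows that were not listed count as 0), and the 14 windows that were not listed (windows 32 to 34 and 41 to 44 of MT-ND1, and windows 1 to 6 and 35 of MT-ND2) all fell in the last. The share of a gene's 30-nt stretches with a nuclear copy was highest in MT-ND2 (58.0%), followed by MT-ND1 and MT-ND6 (both 34.3%), and lowest in MT-ND3 (4.73%). Levels of MT-ND1 and MT-ND2 per kb therefore rest on fewer windows than their length. With the windows that share no stretch, a choice made after seeing the data, the members that passed were again MT-ND4 (−0.56, adjusted p = 0.0146) and MT-ND3 (−0.48, adjusted p = 0.0296) in MDH2 IP over SMI and MT-ND6 (−2.61) in MDH2 IP over IgG IP. With the IgG IP set against the SMI they were MT-ND6 at 2.87 and MT-ND3 at −0.67.

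The annotated pseudogenes of these mRNAs with the most counts were MTND2P28 and MTND1P23 on chromosome 1. MTND2P28 had 297, 188 and 203 counts in the MDH2 IP and 342, 439 and 525 in the SMI, and fell by 0.69 on the log2 scale (adjusted p = 0.0131). MTND1P23 had a log2 fold change of −0.51 (adjusted p = 0.140). Counts of such copies and of the mitochondrial genes can be shared, so the pseudogene values are uncertain.

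The rest of complex I is encoded in the nucleus, and 36 of 37 nuclear subunits were matched by symbol, of which 35 were tested. Here 9 were higher and 3 lower in the MDH2 IP than in the SMI, where all genes gave 16.4% and 17.9%. NDUFV1, which carries the NADH-binding flavin, rose most clearly, with 544, 583 and 524 CPM in the MDH2 IP against 253, 273 and 214 in the SMI (log2 fold change 1.07, SE 0.13, adjusted p = 9.43e-04). NDUFA11, an accessory membrane subunit, rose by 0.93 (adjusted p = 0.00152) and NDUFS8, an iron-sulfur subunit, by 0.68 (adjusted p = 0.00664). NDUFS4, an accessory subunit of the matrix arm, fell from 57.8, 57.9 and 62.9 CPM in the SMI to 30.4, 27.2 and 34.1 in the MDH2 IP (−1.06, adjusted p = 0.00161). NDUFV2, an iron-sulfur subunit beside NDUFV1, fell by 0.84 (adjusted p = 0.00325) and NDUFB5 by 0.73 (adjusted p = 0.0124). The IgG IP was above the SMI as well for NDUFA11 (1.14, adjusted p = 0.00244) and NDUFS8 (0.72, 0.0114) and below it for NDUFV2 (−0.65, 0.0369), while NDUFV1 was higher in the MDH2 IP than in the IgG IP (0.78, 0.0132). The values of these subunits include intron windows and are not those of the mRNAs alone. Counted over exon windows only, 2 nuclear subunits were higher and 1 lower in the MDH2 IP than in the SMI. Which of the named subunits kept their call there is not given, nor is the share of all genes called.

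The median log2 fold change over the SMI was 0.23 for the nuclear subunits and −0.28 for the mitochondrial members. Summed over the nuclear subunits the level was 2139 to 2229 CPM in the MDH2 IP. It was 1594 to 1652 in the SMI and 1561 to 1724 in the IgG IP. These sums include intron windows, and a large part of the difference comes from NDUFV1. That gene alone had means of 550.5 CPM in the MDH2 IP, 246.5 in the SMI and 287.6 in the IgG IP. The sum over the mitochondrial members was 3499 to 4132, 3986 to 5079 and 3709 to 4538 CPM, and these ranges overlapped. In MDH2 IP over IgG IP, 3 nuclear subunits were higher and 1 lower, with a median of 0.42, where 4.64% and 7.77% of all genes were. These calls depended on the setting, with 0 over exon windows. There were 8 higher and 1 lower with total counts as library size, and 7 higher and 3 lower with DESeq2. In IgG IP over SMI, 6 nuclear subunits were higher and 3 lower, with a median of −0.31, where 16.4% and 11.4% of all genes were. Exon windows left 3 higher and 0 lower there. The shares of all genes called in these other settings are not given, so their counts have no background.

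**Figure D5:**
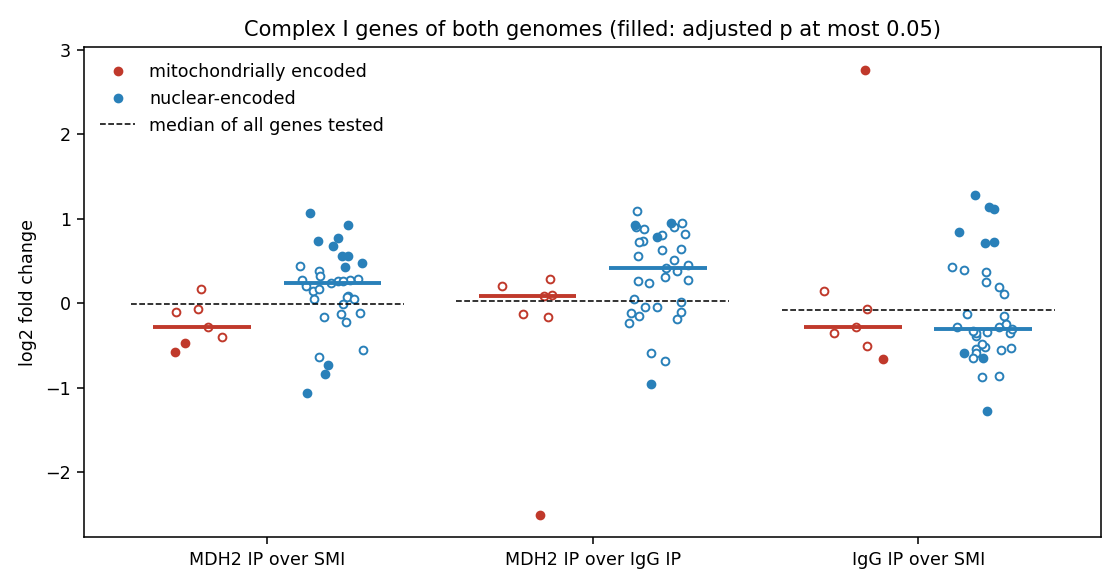
Log2 fold changes of the complex I genes of both genomes in the gene test, with filled points for genes that passed the threshold. Solid lines are the medians of the 7 mitochondrial members and of the 35 nuclear subunits, and dashed lines the median of all genes tested. In MDH2 IP over SMI the medians are −0.28 and 0.23.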

How the data were processed

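eCLIP libraries of Huh7 cells (3 MDH2 IP, 3 SMI and 3 IgG IP) were analysed from a table of cross-link site counts deposited by the authors. Per the study's methods, reads were trimmed with cutadapt, aligned to hg38 with STAR with up to 10 alignments per read, and reduced to unique molecules by their molecular identifiers. The cross-link site was taken as the base upstream of the alignment start, and the authors counted sites in windows of 50 nt every 20 nt, so a site could enter up to 3 windows and the deposited counts of a gene exceed its number of sites. Their annotation was GENCODE release 23; release 44 was used here for names and coordinates (33751 of 34950 Ensembl identifiers matched). The strand setting of the counting is not given in the sources used here. All value columns were used.

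Groups came from the sample labels. Counts were summed over the windows of each gene, which for nuclear genes include intron windows. One identifier that repeats a mitochondrial tRNA was left out. The filter kept genes and windows that reached 10 counts in 3 or more of the 6 libraries of a comparison. The test was the quasi-likelihood test of edgeR 4.0.16 (R 4.3.3) with TMM and Benjamini-Hochberg adjustment. Window tests multiplied one-sided p-values by the number of overlapping windows before adjustment. Positions were compared with an exact two-sided permutation test in Python 3.11.15. DESeq2 1.42.0, other library sizes, filters and windows, a replicate block and leaving out each library were the alternatives. Scripts were tested on simulated data.

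Summed window counts were 9482209, 6725920 and 5899767 in MDH2 IP replicates 1 to 3, 8311027, 9354014 and 9788461 in the SMI, and 2942624, 1725191 and 1631220 in the IgG IP, so the IgG IP rests on the fewest counts. Replicates differed beyond sampling noise (chi-square per degree of freedom 2.77 to 11.61). The labels do not say whether replicates were separate cultures, so p-values measure the spread between these libraries. As for pairing, the deviations of same-numbered MDH2 IP and SMI libraries from their group means correlated at 0.1297, 0.4822 and 0.5031, all above 0.1, and their numbers were taken as pairs. For MDH2 IP and IgG IP (−0.029, 0.2311 and 0.289) and for IgG IP and SMI (0.034, 0.2655 and 0.3139) they were not.

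The members and lists were chosen with earlier results of these data known. Named with values were the 7 members, the other 6 mitochondrial mRNAs as a comparison set, the windows of each member with the most counts per group and the highest and lowest fold change over the SMI, and windows past the threshold (the 3 with the largest change where there were over 6). The rule also named up to 3 nuclear subunits in each direction by p, up to 5 mitochondrial pseudogenes by counts, and the 5 genes most like the summed members across libraries.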

Additional observations from a re-analysis of the deposited data

How the results depend on the processing

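MT-ND6 was lower in the MDH2 IP than in the IgG IP and higher in the IgG IP than in the SMI under all alternatives run. The number of complex I genes called in MDH2 IP over SMI (2) was 1 with total counts as library size, 1 with all 9 libraries in 1 fit, 4 with the replicate block and 0 to 2 when 1 library was left out (0 without MDH2 IP replicate 1). In IgG IP over SMI (2) it was 4 with total counts, of which 3 were lower. It was 5 with genes of at least 1 count in any library (4 lower) and 4 with the replicate block (3 lower). When 1 library was left out it was 1 to 2. The shares of all genes called in these settings are not given, so these counts have no background from the whole series. Each replicate correlated best with its own number in MDH2 IP and SMI, but MDH2 IP replicate 1 did not in MDH2 IP and IgG IP. The block changed no other count of genes or windows by over 1.5 times (44 windows against 39 in MDH2 IP over IgG IP, 35 against 34 in IgG IP over SMI and 57 in both fits of MDH2 IP over SMI).

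Windows called in MDH2 IP over SMI (57) fell to 10 with total counts and to 35 to 59 when 1 library was left out. In MDH2 IP over IgG IP (39) there were 23 with total counts and 24 to 45 when 1 library was left out, the lowest being 24, 25 and 25 without MDH2 IP replicates 1, 2 and 3. In IgG IP over SMI (34) there were 24 to 36 without 1 library. Nuclear subunits called went from 12 to 3 with exon windows in MDH2 IP over SMI, from 9 to 3 in IgG IP over SMI, and from 4 to 9 with total counts, 0 with exon windows and 10 with DESeq2 in MDH2 IP over IgG IP. The shares of all genes called in these settings are not given. The share of the members in all counts, IgG IP minus SMI, reversed from −0.046 to 1.05 percentage points when windows short of 10 counts in 3 libraries were left out of the sums. The cause of these moves was not tested.

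The other reversals were of values that passed no threshold. MT-ND1 in MDH2 IP over SMI became 0.027 with total counts and 0.011 with windows that do not overlap, and ranged from −0.21 to 0.053 when 1 library was left out. In IgG IP over SMI it ranged from −0.22 to 0.011. MT-ND4 in MDH2 IP over IgG IP became 0.025 with total counts and 5.01e-04 with at least 1 count in any library, where MT-ND5 in IgG IP over SMI became −0.033. Over the SMI, window 1 of MT-ND3 became −0.014 with TMM computed without mitochondrial genes, −0.076 with the minimum lowered to 5 counts and −0.074 to 0.22 when 1 library was left out. Window 29 of MT-ND5 became −0.053 with 5 counts and ranged from −0.15 to 0.16, and window 41 of MT-ND4 became 0.086 with total counts. The position difference of MDH2 IP minus IgG IP ranged from −0.018 to 0.0033 in MT-ND1 and from −0.016 to 0.0046 in MT-ND5 when 1 library was left out, and that of IgG IP minus SMI in MT-ND5 from −0.0099 to 0.010. The IgG IP held the fewest counts, which limits how many of its windows could be tested.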

Other observations

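The genes whose levels followed the summed level of the 7 complex I mRNAs most closely over the 9 libraries, among 5165 genes of at least 50 CPM on average, were OTUD7B (r = 0.890), CDH2 (0.815), SEMA3D (0.810), SNORA6 (0.808) and PPM1A (0.804). The sum is made up mostly of MT-ND4 and MT-ND5, and the libraries fall into 3 groups, so the values are a description and are given without a p-value.

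Of the 8 tRNAs encoded like MT-ND6 on the light strand, 2 were tested, MT-TP and MT-TY, and both were higher than the SMI in the IgG IP (log2 fold change 1.99 and 2.82) and in the MDH2 IP (1.60 and 2.62). Between the MDH2 IP and the IgG IP they lay at −0.30 and −0.11, where MT-ND6 lay at −2.51. The tRNAs of the other strand went the same way, with 6 of 9 higher and 1 lower in IgG IP over SMI, and 7 of 10 higher and 1 lower in MDH2 IP over SMI.

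Of the remaining pseudogenes, MTND4P24 on chromosome X had a log2 fold change of −0.84 in MDH2 IP over SMI (adjusted p = 0.0536 by edgeR) and MTND4P12 on chromosome 5 one of −0.12. MTND5P2 on chromosome 13 held 55 counts in all and was not tested.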
